A study of Mus musculus with 16 samples.

Results

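The measurements concern 5 of the 611 mouse miRNAs on the array, chosen by name because their precursors are described as bypassing Drosha: the capped hairpins mmu-miR-320 and mmu-miR-484, the mirtron product mmu-miR-877 and its other arm mmu-miR-877*, and the mirtron product mmu-miR-1224. They were read on 16 one-colour Agilent mouse miRNA arrays (V2) of total RNA from mouse embryonic fibroblasts (MEFs), 1 array per RNA sample and 2 arrays for each of 8 groups. The groups cross genotype, Ercc1-/- (KO) or WT, with passage, P7 or P3, and with oxygen, 20% or 3% O2. All cells are primary MEFs from embryos of a mixed C57Bl/6 and FVB/n background, and the replicates are described as independent experiments on a pair of cell lines. The KO cells lack ERCC1, the partner of the XPF nuclease in nucleotide excision and crosslink repair, in every cell and at every passage, and the arrays do not measure Ercc1 itself. Replicate 1 of every group lay on slide 1 and replicate 2 on slide 2, and each slide was scanned once, so that replicate number, slide and scan cannot be told apart. The sample titles do not name the cell line. By the methods of the study, each sample had 2 independent lines and both were put on arrays. The 2 arrays of a group are then from different lines, so within a group the line cannot be told apart from the slide either.

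A canonical miRNA is cut first in the nucleus by the Microprocessor of Drosha and DGCR8 and then in the cytoplasm by Dicer. A mirtron is a short intron whose ends are set by the spliceosome, and after debranching the intron folds into a hairpin that Dicer can cut directly. A capped hairpin starts at the transcription start site, so that RNA polymerase and not Drosha sets its 5′ end, and it reaches Dicer with its cap. Both routes leave the members dependent on Dicer and Argonaute but not on Microprocessor. P7 is the late passage of the study, which at low oxygen need not mean late in the life span of the cells. By the paper, the high oxygen of standard culture drives MEFs into stress-related senescence. It states that MEFs grown in low oxygen show no signs of senescence. Passage, genotype and oxygen were crossed in the study to look for miRNAs that go with senescence.

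The annotated hairpins of the 2 mirtrons begin and end with the letters of an intron. The tables used here give gene spans but no exons, so that the host introns themselves were not checked and the mirtron origin is background. In RefSeq (GRCm38.p6) the Mir877 hairpin lies at chr17:35960730-35960814 on the minus strand, inside the span of Abcf1, which encodes an ABC protein of translation initiation. The Mir1224 hairpin lies at chr16:20604452-20604536 on the plus strand, inside the span of the protein-coding gene Vwa5b2. Both are 85 bases long, and in both the annotated 5′ product begins at the first base of the hairpin, as it does in 147 of 991 annotated mouse hairpins with a mature product (14.83%). The 2 hairpins are shown whole, 5′ to 3′, with capitals on the first 2 and last 2 bases, the GU and AG of a spliced intron.
Mir877 hairpin: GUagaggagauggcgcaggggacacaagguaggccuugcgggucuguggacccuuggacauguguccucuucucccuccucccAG
Mir1224 hairpin: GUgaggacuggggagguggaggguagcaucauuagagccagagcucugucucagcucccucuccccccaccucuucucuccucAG
Of the 1005 mouse hairpins in the table, 30 (2.99%) begin with GU and end with AG.

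The Mir484 hairpin shows a different layout. It lies at chr16:14159626-14159692 on the plus strand, 348 bases from the gene span of Marf1 and 3583 bases from that of Nde1, and inside no protein-coding gene span. It is 67 bases long, and its mature product, in capitals below, begins after only 4 bases.
Mir484 hairpin: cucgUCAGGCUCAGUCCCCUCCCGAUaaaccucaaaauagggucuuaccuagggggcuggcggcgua
Mir320 lies at chr14:70443510-70443591, 39 bases from the span of Polr3d, which encodes a subunit of RNA polymerase III, and outside it.

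The mature sequences are given with the seed, bases 2 to 8 counted from the 5′ end, in capitals, because the seed sets most of the target choice of a miRNA. The array names of the mirtron products were matched to the RefSeq arms miR-877-5p, miR-877-3p and miR-1224-5p. No sequence was available for miR-320.
miR-484: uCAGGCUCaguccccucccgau
miR-877: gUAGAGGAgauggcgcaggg
miR-877*: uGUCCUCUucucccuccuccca
miR-1224: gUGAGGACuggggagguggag
No 2 of these 4 share a seed, and no other mature mouse miRNA in the table has any of the 4 seeds. The seeds of miR-877 and miR-1224 have the run GAGGA in common, displaced by 1 position. All 4 are rich in G and C, with a GC content of 63.6% in miR-484, 65.0% in miR-877, 59.1% in miR-877* and 66.7% in miR-1224. The 5′ arms of the mirtrons are rich in G (55.0% in miR-877 and 61.9% in miR-1224), while miR-877* has 4.5% G.

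Signals below are the processed (background-subtracted) signals of the scanner software, averaged over the spots and probes of a miRNA, scaled between arrays and given as log2. The scaling gives each array an equal mean over a set of 57 miRNAs that all 16 arrays detected above background. The number of mouse miRNAs above background was 155 to 257 on the arrays of slide 1, 117 to 178 on the P7 arrays of slide 2 and 132 to 204 on its P3 arrays. The mean over the set, relative to its average over arrays, lay between -2.56 and 1.41 log2 units, and the KO P7 20% array of slide 2 (-2.56) stood apart from the next lowest (-1.39). Of the 8 miRNAs listed as abundant in mesenchymal cells, among them miR-21, miR-214 and miR-199a-3p, 5 were above background on all 16 arrays and 3 on 15. Of these 8, 3 were lower at P7 in the averaged passage comparison (P7 minus P3 of -2.78 log2 units for miR-199a-3p, limma adjusted p = 0.00701, -1.15 for miR-214, adjusted p = 0.0375, and -1.05 for miR-199b*, adjusted p = 0.0447) and 1, miR-145, was higher (1.20, adjusted p = 0.0159). Of 11 miRNAs of other cell types, 8 were above background on no array, including the liver miR-122, the neural miR-124 and miR-9 and the epithelial miR-200c and miR-141. The others were miR-223 on 9 arrays, miR-142-3p on 5 and miR-206 on 2, and the first 2, both blood miRNAs, had averaged passage changes of -0.33 and -0.61 log2 that did not pass the test (limma adjusted p = 0.579 and 0.271). The part of these marker signals in the results below was not tested.

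The members differed in how well the array saw them. MiR-1224 was above background on all 16 arrays, miR-320 on 15, miR-877 on 14, miR-484 on 8 and miR-877* on 3. The array on which miR-320 was not above background was WT P3 20% on slide 2, and miR-877 was missed there and on the KO P3 20% array of slide 2. MiR-484 was above background on 7 of 8 arrays of slide 1 and on 1 of 8 arrays of slide 2, KO P7 3%. MiR-877* was above background on no P3 array and on 3 P7 arrays, all of slide 2 (KO 20%, KO 3% and WT 3%). A test was run where both arrays of some group were above background, which held for 235 miRNAs, among them 3 members (miR-320, miR-877 and miR-1224). The plot of levels on 16 arrays gives every value.

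**Figure D1:**
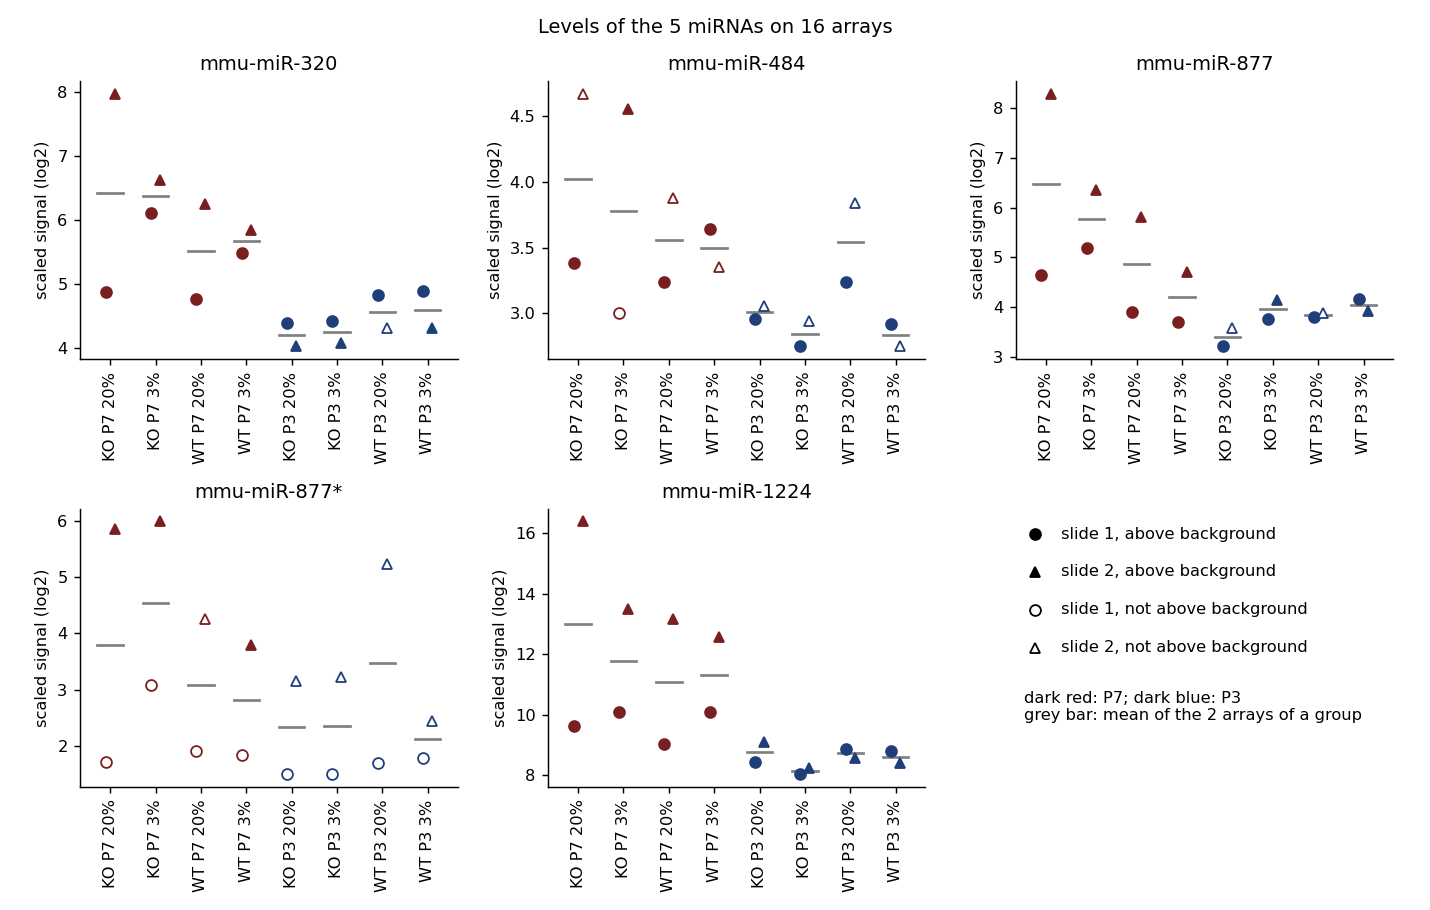
Scaled signal (log2) of the 5 miRNAs on each of 16 arrays by group, circles for slide 1 and triangles for slide 2, filled where the miRNA was above background, with a grey bar at the mean of the 2 arrays. For miR-1224 the P7 arrays of slide 2 lie between 12.57 and 16.40 and the P3 arrays of both slides between 8.04 and 9.11.

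The mirtron product from within the Vwa5b2 span, mmu-miR-1224, was above background throughout. On slide 2 its log2 signal in P7 cells was 16.40 in KO at 20%, 13.50 in KO at 3%, 13.16 in WT at 20% and 12.57 in WT at 3%, against 9.11, 8.25, 8.58 and 8.41 in P3 cells in the same order of groups. On slide 1 its signal in P7 cells was 9.63 in KO at 20%, 10.08 in KO at 3%, 9.03 in WT at 20% and 10.08 in WT at 3%, against 8.43, 8.04, 8.87 and 8.79 in P3 cells. Within each slide every P7 array lay above every P3 array, with a far wider gap on slide 2, while over both slides the lowest P7 array (9.03) lay below the highest P3 array (9.11). The 8 P3 arrays lay between 8.04 and 9.11 and did not separate by genotype, oxygen or slide.
The group means in descending order were 13.02 ± 4.79 in KO P7 20%, 11.79 ± 2.42 in KO P7 3%, 11.32 ± 1.76 in WT P7 3%, 11.10 ± 2.92 in WT P7 20%, 8.77 ± 0.48 in KO P3 20%, 8.73 ± 0.20 in WT P3 20%, 8.60 ± 0.27 in WT P3 3% and 8.15 ± 0.15 in KO P3 3% (SD, n = 2 each). Of the 7 neighbouring pairs in this order, only the last one had arrays that did not overlap.

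The capped hairpin beside Polr3d, mmu-miR-320, was also higher at P7 on slide 2. On slide 2 its log2 signal in P7 cells was 7.98 in KO at 20%, 6.63 in KO at 3%, 6.25 in WT at 20% and 5.84 in WT at 3%, against 4.02, 4.07, 4.30 and 4.30 in P3 cells, the value 4.30 at WT P3 20% being not above background. On slide 1 its signal in P7 cells was 4.87 in KO at 20%, 6.11 in KO at 3%, 4.77 in WT at 20% and 5.49 in WT at 3%, against 4.39, 4.41, 4.82 and 4.89 in P3 cells. The passages were apart on slide 2 and overlapped on slide 1, where the P7 arrays at 20% O2 sat among the P3 arrays and those at 3% O2 above them.
Its group means were 6.43 ± 2.20 in KO P7 20%, 6.37 ± 0.37 in KO P7 3%, 5.67 ± 0.25 in WT P7 3%, 5.51 ± 1.04 in WT P7 20%, 4.59 ± 0.42 in WT P3 3%, 4.56 ± 0.37 in WT P3 20%, 4.24 ± 0.24 in KO P3 3% and 4.21 ± 0.26 in KO P3 20% (SD, n = 2 each). Only KO P7 3% and WT P7 3% were neighbours in this order without an overlap of their arrays.

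The 5′ arm of the Abcf1 mirtron, mmu-miR-877, reached its highest signal on the same array as miR-1224 and miR-320. On slide 2 its log2 signal in P7 cells was 8.29 in KO at 20%, 6.35 in KO at 3%, 5.82 in WT at 20% and 4.70 in WT at 3%, against 3.57, 4.14, 3.88 and 3.93 in P3 cells, where both values at 20% O2 were not above background. On slide 1 its signal in P7 cells was 4.65 in KO at 20%, 5.18 in KO at 3%, 3.91 in WT at 20% and 3.69 in WT at 3%, against 3.21, 3.77, 3.81 and 4.16 in P3 cells. Both KO P7 arrays of slide 1 lay above all 4 P3 arrays there, and both WT P7 arrays lay among them.
The group means were 6.47 ± 2.57 in KO P7 20%, 5.76 ± 0.83 in KO P7 3%, 4.86 ± 1.35 in WT P7 20%, 4.19 ± 0.71 in WT P7 3%, 4.04 ± 0.17 in WT P3 3%, 3.96 ± 0.26 in KO P3 3%, 3.84 ± 0.05 in WT P3 20% and 3.39 ± 0.26 in KO P3 20% (SD, n = 2 each). Again only the last pair of neighbours, WT P3 20% and KO P3 20%, did not overlap.

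The passage comparison, averaged over genotype and oxygen, addresses which miRNAs differ between late and early cultures. All 3 tested members were higher at P7 than at P3 and passed the test: miR-1224 by 3.25 log2 units (9.48-fold, SE 0.96, limma adjusted p = 0.0161), miR-320 by 1.59 (3.01-fold, SE 0.44, adjusted p = 0.0124) and miR-877 by 1.51 (2.85-fold, SE 0.51, adjusted p = 0.0259). This count is to be read against a background in which 129 of 235 miRNAs (54.9%) passed, 53 of them higher at P7 (22.6%) and 76 lower, with a median change of -0.39 over all tested miRNAs. By size of the change toward P7, miR-1224 ranked 4 of 235, miR-320 ranked 29 and miR-877 ranked 35. MiR-320 and miR-877 are among the miRNAs that the study itself listed from these arrays, as higher at P7 in KO cells at 3% O2. Their direction here is thus not independent evidence. The study also reported miR-320 as higher in that comparison by qRT-PCR, but not in livers of progeroid or old WT mice. Matched by genotype, oxygen and slide, the P7 array was the higher one in 8 of 8 pairs for miR-1224 (by 0.16 to 7.29), in 7 of 8 for miR-320 (-0.05 to 3.96) and in 7 of 8 for miR-877 (-0.47 to 4.72). On slide 2 the P3 array was not above background in 1 of these pairs for miR-320 and in 2 for miR-877, the one of 4.72 among them, and there the difference is not an exact value.

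The passage change was not of one size on the 2 slides. In a fit of passage, slide and their product (added after the values were seen), the change on slide 2 was 5.32 for miR-1224 (SE 0.58, adjusted p = 2.72e-06), 2.50 for miR-320 (SE 0.42, adjusted p = 6.8e-05) and 2.41 for miR-877 (SE 0.53, adjusted p = 0.000676), where 191 of 235 miRNAs (81.3%) passed. The change on slide 1 was 1.17 for miR-1224 (SE 0.58, adjusted p = 0.207), 0.68 for miR-320 (SE 0.42, adjusted p = 0.312) and 0.62 for miR-877 (SE 0.53, adjusted p = 0.45), and none of the 3 was among the 14 miRNAs (5.96%) that passed there. The difference between slides passed the test for miR-1224 (4.15, SE 0.81, adjusted p = 0.00238) and miR-320 (1.82, SE 0.59, adjusted p = 0.0217) and missed it for miR-877 (1.79, SE 0.75, adjusted p = 0.059), as it did pass for 113 of 235 miRNAs (48.1%). By plain overlap, all 3 members had every P7 array above every P3 array on slide 2, which 64 of 235 miRNAs (27.2%) did, miR-1224 alone of the 3 on slide 1, which 16 (6.81%) did, and none over both slides together, which 6 (2.55%) did. The fit also held a genotype and an oxygen term, so its p-values measure the spread among arrays of different groups on a slide. No slide was repeated, and they do not measure the spread between replicates. Slide, replicate number and scan coincide, and the 2 arrays of a group are from different cell lines. The parts of slide, scan and line in this difference cannot be told apart.

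The scaling bears on these values, since the 57 miRNAs it rests on were dimmer at P7 than at P3 in 4 of 4 pairs of arrays on slide 1 (P7 minus P3 of -1.77 to -0.05 log2 units) and in 3 of 4 on slide 2 (-2.70 to 0.10). Before scaling, miR-320 read 50.8 in KO at 20%, 50.2 in KO at 3%, 52.0 in WT at 20% and 67.0 in WT at 3% on the P7 arrays of slide 1, against 55.9, 52.7, 55.7 and 57.1 on the P3 arrays. On slide 2 it read 43.0, 40.0, 31.2 and 44.2 on the P7 arrays and 18.0, 16.6, 7.56 and 24.0 on the P3 arrays, in the same order of groups. The unscaled signal of miR-320 thus hardly differed by passage on slide 1 and was higher on every P7 array of slide 2.
Unscaled miR-1224 read 14698 in KO at 20%, 4678 in KO at 3%, 3769 in WT at 20% and 4667 in WT at 3% on the P7 arrays of slide 2, against 610 in KO at 20%, 302 in KO at 3%, 147 in WT at 20% and 416 in WT at 3% on the P3 arrays. On slide 1 it read 1379, 788, 994 and 1615 on the P7 arrays and 918, 655, 919 and 851 on the P3 arrays, again in that order. Every P7 array was brighter than its P3 counterpart, scaled or not.
Unscaled miR-877 ran from 19.2 to 43.6 on the P7 arrays of slide 1 and from 24.6 to 34.4 on the P3 arrays, and from 20.0 to 53.1 on the P7 arrays of slide 2 and from 5.62 to 18.6 on the P3 arrays. With no scaling, the averaged passage change was 2.33 for miR-1224 (adjusted p = 0.0413), 0.67 for miR-320 (adjusted p = 0.342) and 0.59 for miR-877 (adjusted p = 0.335), beside a median of -1.14 over all tested miRNAs, so that only miR-1224 kept its call.

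**Figure D2:**
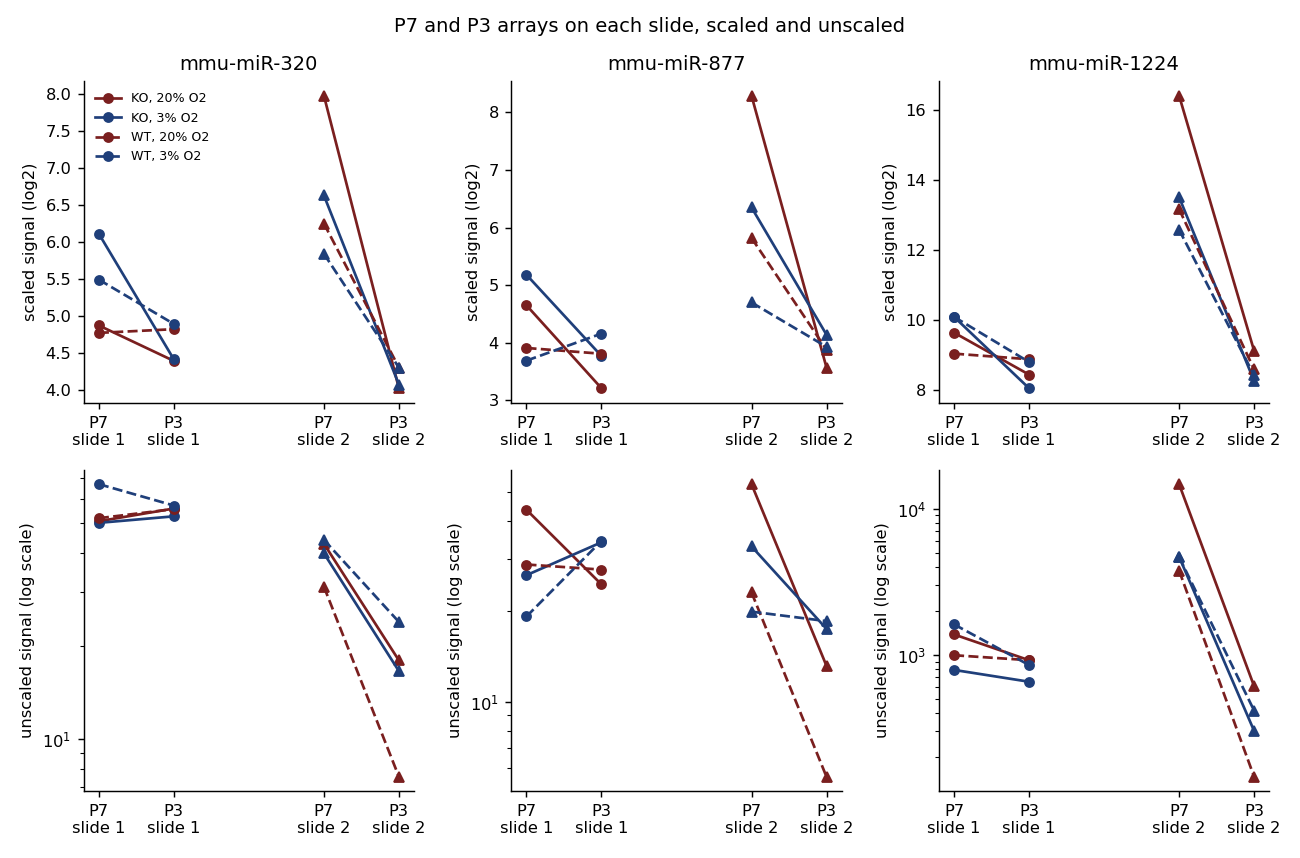
Scaled signal (log2, upper row) and unscaled signal (log axis, lower row) of the 3 tested members, with a line joining the P7 and P3 arrays of a genotype and oxygen level on each slide. Unscaled miR-320 lies between 50.2 and 67.0 on all 8 arrays of slide 1, and on slide 2 between 31.2 and 44.2 at P7 and between 7.56 and 24.0 at P3.

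The call of miR-877 was the least firm of the 3. It was lost on leaving out any 1 of 7 of the 16 arrays (adjusted p = 0.0509 to 0.0649), namely KO P3 20% and KO P3 3% on slide 1 and WT P3 20%, WT P3 3%, WT P7 20%, WT P7 3% and KO P7 3% on slide 2. The calls of miR-1224 and miR-320 held without each of the 16 arrays in turn. With the replicate number (the slide) as a block, the change was the same by construction and adjusted p became 0.00479 for miR-1224, 0.00752 for miR-320 and 0.00866 for miR-877. Such a block takes out only a slide difference that is the same at both passages, while the estimated passage change of these members differed by slide. The smaller values therefore do not make the calls firmer. With the cell line as a random block, adjusted p was 0.00774 for miR-1224, 0.00774 for miR-320 and 0.0124 for miR-877. The line was taken as genotype with replicate number, since the titles do not name it. That block too takes up only what both passages share, so its values do not make the calls firmer either.

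**Figure D3:**
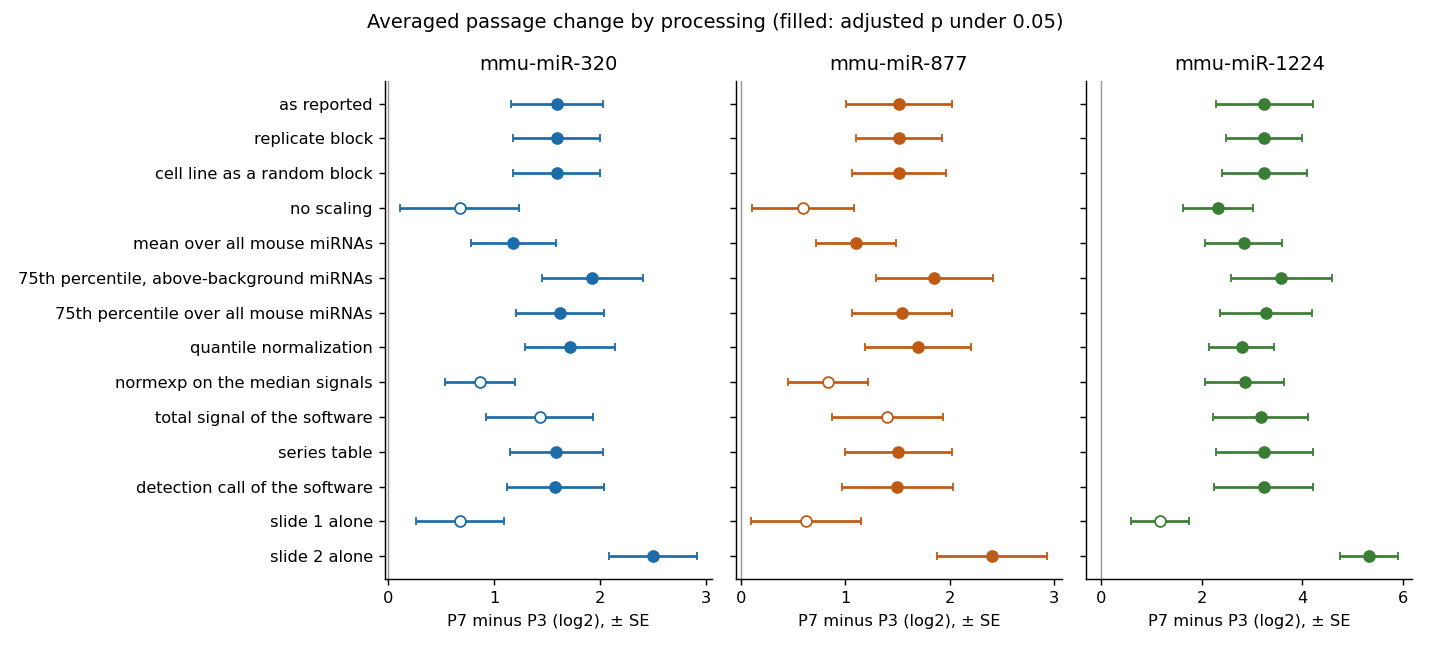
Averaged passage change, P7 minus P3 (log2, with SE), of the 3 tested members under 12 ways of processing and on each slide alone, filled where adjusted p was under 0.05. All values are above 0, and those with no scaling (0.67 for miR-320 and 0.59 for miR-877) and on slide 1 alone (0.68 and 0.62) are the lowest for miR-320 and miR-877.

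Within single groups the passage change of the members had a larger estimate in KO than in WT cells at both oxygen levels, but no single comparison passed the test and the estimates rest in part on 1 array. In KO cells at 20% O2 the change was 4.25 for miR-1224 (95% interval 0.03 to 8.46, adjusted p = 0.135), 3.08 for miR-877 (0.85 to 5.30, adjusted p = 0.099) and 2.22 for miR-320 (0.31 to 4.12, adjusted p = 0.104), where 1.28% of miRNAs passed. In KO cells at 3% O2 it was 3.64 for miR-1224 (-0.57 to 7.85), 1.81 for miR-877 (-0.42 to 4.03) and 2.13 for miR-320 (0.23 to 4.03, adjusted p = 0.125), where 0% passed. In WT cells at 20% O2 it was 2.37 for miR-1224 (-1.84 to 6.58), 1.02 for miR-877 (-1.21 to 3.25) and 0.94 for miR-320 (-0.96 to 2.85), where 1.28% passed. In WT cells at 3% O2 it was 2.72 for miR-1224 (-1.49 to 6.93), 0.15 for miR-877 (-2.08 to 2.37) and 1.07 for miR-320 (-0.83 to 2.98), where 0% passed. The intervals of these 12 values overlap widely, each resting on 2 arrays against 2. Without the KO P7 20% array of slide 1, which leaves the brighter array of slide 2 alone in its group, all 3 passed in KO cells at 20% O2 (adjusted p = 0.00466 for miR-1224, 0.00161 for miR-320 and 0.00141 for miR-877), and without either array of that group miR-320 passed in KO cells at 3% O2 (adjusted p = 0.0207). Without the slide 2 array of that group, the change in KO cells at 20% O2 was 0.86 for miR-1224, 0.66 for miR-320 and 1.26 for miR-877, and none passed (adjusted p = 0.821 to 0.934).
The difference between the genotypes was tested directly. The passage change in KO minus that in WT cells was 1.40 for miR-1224 (-2.81 to 5.61, adjusted p = 0.777), 1.86 for miR-877 (-0.37 to 4.08, adjusted p = 0.769) and 1.17 for miR-320 (-0.74 to 3.07, adjusted p = 0.769), and 0% of miRNAs passed this test. Without the KO P7 20% array of slide 1, that of miR-877 was 2.77 and passed (adjusted p = 0.0454). Without the slide 2 array of that group the values were -0.29 for miR-1224, 0.95 for miR-877 and 0.39 for miR-320, and with no scaling that of miR-320 was -0.19, so that the direction is not settled for miR-1224 and miR-320. By the methods' test, which asks for a 2-fold change and an unadjusted threshold, miR-320 passed in KO cells at 3% O2, as 21 of 235 miRNAs (8.94%) did there and 0 after Benjamini-Hochberg adjustment. In the comparison of the extreme groups, P7 KO at 20% O2 against P3 WT at 3% O2, the differences were 4.42 for miR-1224 (0.20 to 8.63, adjusted p = 0.161), 2.43 for miR-877 (0.20 to 4.65, adjusted p = 0.161) and 1.83 for miR-320 (-0.07 to 3.74, adjusted p = 0.175), where 2.55% passed, and all 3 members passed without the same array.

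The genotype comparison asks what loss of ERCC1 adds at a given passage. Averaged over passage and oxygen, KO minus WT was 0.49 for miR-1224 (-1.61 to 2.60), 0.66 for miR-877 (-0.45 to 1.77) and 0.23 for miR-320 (-0.72 to 1.18), with adjusted p of 0.933 to 0.96 and 1.7% of all miRNAs past the test. At P7 the difference was 1.92 for miR-1224, 1.61 for miR-877 and 0.92 for miR-320 at 20% O2, and 0.47 for miR-1224, 1.57 for miR-877 and 0.70 for miR-320 at 3% O2. At P3 it was 0.04 for miR-1224, -0.45 for miR-877 and -0.35 for miR-320 at 20% O2, and -0.46 for miR-1224, -0.09 for miR-877 and -0.36 for miR-320 at 3% O2. None of these 12 values passed, and the share of miRNAs that did was 0.426% at P7 and 20% O2, 0% at P7 and 3% O2, 0.851% at P3 and 20% O2 and 0% at P3 and 3% O2. With each array left out in turn, the averaged KO minus WT ran from -0.35 to 1.34 for miR-1224, from -0.16 to 0.62 for miR-320 and from 0.21 to 1.11 for miR-877. The values of -0.35 and -0.16 came without the KO P7 20% array of slide 2, so that the direction rests in part on 1 array for miR-1224 and miR-320. The signs after scaling were split by passage for miR-320: matched by oxygen and slide, KO was higher in 4 of 4 pairs at P7 (by 0.10 to 1.74) and lower in 4 of 4 pairs at P3 (-0.49 to -0.23). Before scaling this split was not there, with KO higher in 1 of 4 pairs at P7 (-0.42 to 0.46) and in 2 of 4 at P3 (-0.53 to 1.25). MiR-877 was higher in KO in 4 of 4 pairs at P7 (0.74 to 2.47, and 0.46 to 1.20 before scaling) and in 1 of 4 at P3 (-0.60 to 0.22).

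The oxygen differences of the members were the smallest of the 3 averaged comparisons. Averaged over genotype and passage, 20% minus 3% was 0.44 for miR-1224 (-1.67 to 2.55), 0.15 for miR-877 (-0.96 to 1.27) and -0.04 for miR-320 (-0.99 to 0.91), each with an adjusted p of 1, and 0.851% of miRNAs passed. The sign of the value for miR-877 turned under 4 other scalings and that of miR-1224 under quantile normalization. In the 4 single comparisons the values of the members lay between -0.57 (miR-877 in KO cells at P3) and 1.23 (miR-1224 in KO cells at P7), none passed, and 0% of all miRNAs passed in each of the 4. The passage change at 20% minus that at 3% O2 was 0.13 for miR-1224, 1.07 for miR-877 and -0.02 for miR-320, and the oxygen difference in KO minus that in WT cells was 0.98 for miR-1224, -0.17 for miR-877 and 0.11 for miR-320, with 0% of miRNAs past either test. The intervals reach beyond 4 log2 units for miR-1224 in the single comparisons, so that differences of several fold were not detectable with 2 arrays a group.

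**Figure D4:**
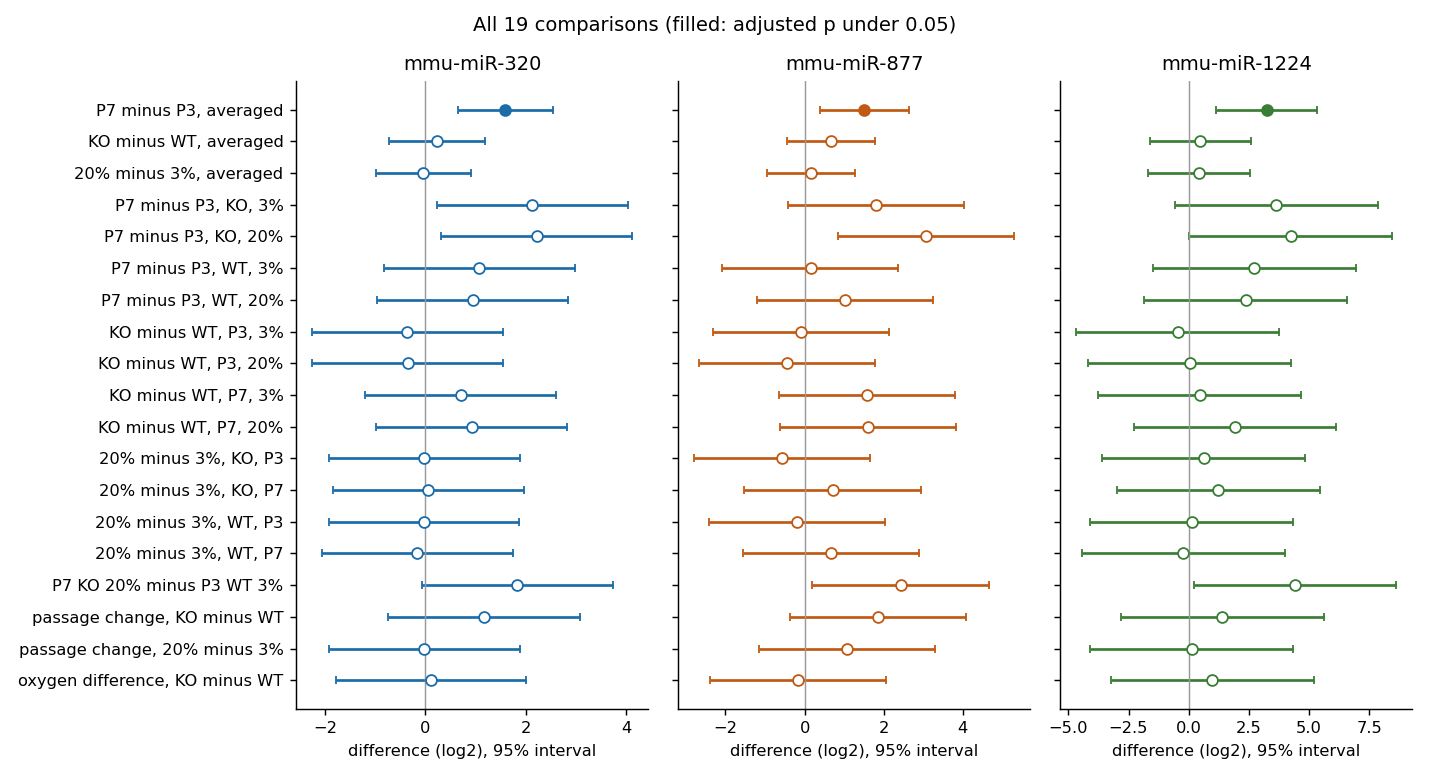
Difference (log2) with its 95% interval for the 3 tested members in all 19 comparisons, filled where adjusted p was under 0.05. The averaged passage change is the only filled value for each member, at 1.59 for miR-320, 1.51 for miR-877 and 3.25 for miR-1224.

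The other arm of the Abcf1 mirtron, miR-877*, carries a star as the arm that was found less often when it was named. Its log2 signal on the arrays where it was above background was 5.86 in KO P7 20%, 5.99 in KO P7 3% and 3.79 in WT P7 3%, all on slide 2. On the other arrays it gave no more than a bound, and on the KO P3 arrays of slide 1 it was at the floor, the lowest value that was allowed. The P3 arrays of the same groups on slide 2 read 3.16 in KO at 20%, 3.22 in KO at 3% and 2.45 in WT at 3%, none of them above background. The remaining P3 array of slide 2, WT at 20%, read 5.24 and was also not above background, though this value is higher than that of WT P7 3%. The second P7 array of each of the 3 groups, on slide 1, was not above background either (1.71, 3.08 and 1.83), so that no fold is given. On the 3 arrays where both arms were seen, miR-877 was at 8.29 (KO 20%), 6.35 (KO 3%) and 4.70 (WT 3%), and the 2 arms are read by different probes, so that their levels are not set against each other.

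The capped hairpin between Marf1 and Nde1, mmu-miR-484, stayed close to background. On slide 1 its log2 signal in P7 cells was 3.38 in KO at 20%, 3.00 in KO at 3% (not above background), 3.24 in WT at 20% and 3.64 in WT at 3%, against 2.96, 2.75, 3.24 and 2.92 in P3 cells. On slide 2 the P7 values were 4.67, 4.55, 3.88 and 3.35 and the P3 values 3.06, 2.94, 3.84 and 2.75 in the same order, and only KO P7 3% (4.55) was above background. On slide 1, where it was mostly seen, 3 of 4 P7 arrays lay above all P3 arrays, 1 of them by less than 0.01, and before scaling the arrays above background read 18.0 to 18.6 at P7 and 14.6 to 20.7 at P3. By the detection call of the scanner software both dim members were detected on 12 of 16 arrays and entered a test over 264 miRNAs, in which the averaged passage change was 0.64 for miR-484 (SE 0.34, adjusted p = 0.127) and 1.03 for miR-877* (SE 0.83, adjusted p = 0.299), and 51.1% of miRNAs passed.

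The probes of a member gave the same direction of passage change. The averaged change was 3.38 and 3.20 for the 2 probes of miR-1224, 1.58 and 1.60 for the 2 of miR-320, and 1.49 to 1.55 for the 4 of miR-877. It was 0.87 and 0.53 for the 2 of miR-484 and 0.90 to 1.11 for the 4 of miR-877*, both mostly below background. The highest unscaled signal of a probe of a member was 22640 (miR-1224), and no spot on any array was saturated.

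Over the 16 arrays the tested members followed each other. Pearson's r of the scaled log2 signal was 0.943 between miR-1224 and miR-320, 0.922 between miR-1224 and miR-877 and 0.919 between miR-320 and miR-877, beside a median of 0.06 over all pairs of tested miRNAs. Within slide 1 these were 0.875, 0.608 and 0.704, and within slide 2 they were 0.990, 0.940 and 0.967. The arrays share slide, cell line and scaling, so these are descriptions. The 3 tested miRNAs most like each member, by r over 16 arrays, were miR-188-5p (0.988), miR-1896 (0.982) and miR-370 (0.982) for miR-1224, miR-1892 (0.992), miR-1895 (0.986) and miR-1894-3p (0.986) for miR-320, and miR-125a-3p (0.969), miR-1897-5p (0.963) and miR-1896 (0.958) for miR-877. None of these 8 is a member, and their averaged passage changes lay between 1.90 (miR-125a-3p) and 3.81 (miR-188-5p). The mirtron arm miR-877 was more like these miRNAs of other loci than like miR-877* from its own hairpin (r = 0.741), which was above background on 3 arrays. Of the miRNAs most like miR-877, miR-1896 was above background on only 6 arrays, and miR-125a-3p and miR-1897-5p on 14. MiR-1892 and miR-1894-3p, named for miR-320, were above background on 12. These likenesses thus rest in part on values not above background.

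MiR-1224 and miR-877 are not the only GC-rich miRNAs that were higher at P7. The GC content of miR-320 was not available, as it had no RefSeq sequence here. Over the 198 of 235 tested miRNAs with a RefSeq sequence (84.3%, where 141 array names were matched through the arms of the same hairpin and given their mean), the GC content and the averaged passage change had a Pearson's r of 0.489 and a Spearman's rho of 0.451, and the median GC content was 47.8%. MiR-1224 (66.7% GC) had a higher GC content than all but 9 of the 198 and miR-877 (65.0%) than all but 13. Both were given the GC content of their own arm, unlike the 141 names given a mean over arms, so these ranks are approximate. Over the 51 of them above background on all 16 arrays r was 0.399, and with no scaling over the 198 it was 0.469. The relation is across miRNAs, which are not independent replicates and share base composition within families, and its part in the passage change of the members was not tested.

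**Figure D5:**
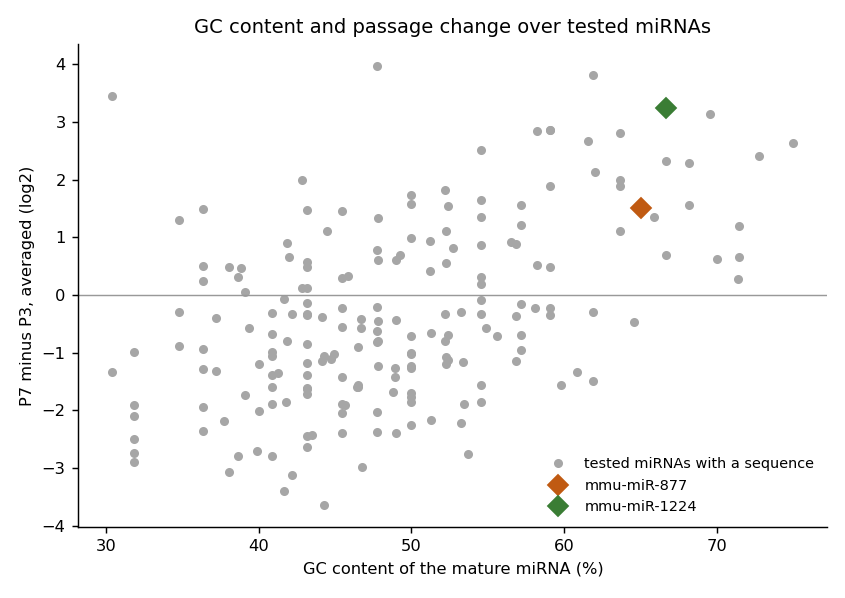
GC content of the mature miRNA (%) against the averaged passage change (log2, P7 minus P3) for the 198 tested miRNAs with a sequence, each point a miRNA. MiR-1224 (66.7% and 3.25) and miR-877 (65.0% and 1.51) lie at the GC-rich end, and miR-320, without a sequence, is not shown.

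Of 7 other miRNAs listed as leaving a step out of the canonical route, 4 are on the array and 0 were tested. The mirtron product miR-702 was above background on 2 arrays, miR-668, from a short hairpin, on 1, and miR-344, likewise from a short hairpin, and miR-451, which Argonaute 2 cuts in place of Dicer, on none. The list therefore gives no passage change to set beside those of the members.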

How the data were processed

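The deposited values are the image analysis output of the authors (Agilent Feature Extraction 10.7.1.1 per the file headers), whose processed signal is the background-subtracted intensity of a spot, not scaled between arrays. A series table with 1 summed, unscaled intensity for each miRNA was deposited too and served as an alternative. Each array has 13715 spots. Outlier spots were left out, spots were averaged by probe and probes by miRNA. A miRNA was above background where at least a share of 0.5 of the spots of any probe was marked well above background. Arrays were brought to 1 mean log2 over the 57 miRNAs that every array had above background, set to a floor of 2.82 (the lowest scaled signal that passed background, as a median over arrays, range 1.02 to 18.0) and log2 transformed. The 235 tested miRNAs entered 1 limma fit (limma 3.58.1, R 4.3.3) with a mean per group (8 residual and 3.58 prior degrees of freedom), and p was adjusted by Benjamini-Hochberg within each of 19 comparisons and called under 0.05. The code was tested on simulated data. Sequences and positions were read with Python 3.11.15 from RefSeq tables (GRCm38.p6).

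Replicate differences (slide 2 minus slide 1) correlated between groups of 1 passage (median r across miRNAs 0.811 at P7 and 0.607 at P3) but not between passages of the same genotype and oxygen (-0.174 to 0.185), and the file headers tie each replicate number to 1 slide, so a fit with the replicate number as a block was run beside every comparison. The p-values measure the spread between 2 arrays a group, which limits the precision. Arrays of 1 slide and passage moved together, which neither the main fit nor the block takes into account. The p-values of the averaged passage change may therefore be too small. Those of the fit by slide measure the spread among arrays of 1 slide, with no repeat of the slide. Members and lists were chosen with earlier results of these data known. The rule for names was the 5 members, the 3 tested miRNAs most like each tested member, and the other non-canonical miRNAs of a list. Alternatives changed the scaling, background correction, floor, filter, signal, block and arrays used.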

Additional observations from a re-analysis of the deposited data

Results flagged for a closer look

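The passage change differed between the slides for 2 members by a test of the difference itself: it was larger on slide 2 than on slide 1 by 4.15 log2 units for miR-1224 (limma adjusted p = 0.00238) and by 1.82 for miR-320 (adjusted p = 0.0217). These p-values measure the spread among arrays of different groups on a slide, and no slide was repeated. Slide, replicate number, scan and cell line cannot be told apart here.

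The sign of KO minus WT for miR-320 was positive in 4 of 4 pairs of arrays at P7 and negative in 4 of 4 pairs at P3 after scaling. Before scaling it was positive in 1 of 4 pairs at P7 and negative in 2 of 4 at P3. The corresponding difference of passage changes, 1.17 log2 units (KO minus WT), did not pass its test (limma adjusted p = 0.769).

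One array lay far from the other 7 P3 arrays in both dim members, WT P3 20% on slide 2: the gap to the next value, as a share of the range of the 8 arrays, was 0.552 for miR-484 and 0.538 for miR-877*, beyond the critical value for 8 values. Neither miRNA was above background on that array, where the lowest scaled signal above background was the highest of all arrays (18.0). For miR-484 the scaled value (3.84) was the highest of the 8 P3 arrays, but before scaling the array read lowest of them (5.47). MiR-877* was highest there both scaled (5.24) and before scaling (14.4). Chance flags about 1 in 20 sets of arrays, and 10 sets were examined.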

How the results depend on the processing

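The averaged passage change kept its sign for all 3 tested members under every alternative run. It kept its call for miR-1224 except with no filter on dim miRNAs, where 611 were tested (3.25, adjusted p = 0.0893), and adjusted p then was 0.0521 for miR-320 (1.59) and 0.105 for miR-877 (1.51). MiR-320 and miR-877 also missed the threshold with no scaling (0.67 and 0.59), with normexp on the median signals (0.87 and 0.83, adjusted p = 0.101 and 0.164) and with the total signal of the software (1.43 and 1.40, adjusted p = 0.0517 and 0.0654). The causes were not tested. The replicate block kept every call of a member (3.25 for miR-1224), though it takes out only a slide difference shared by both passages. With no scaling the calls over all miRNAs numbered 44 in place of 129, 13.6% of them higher at P7 in place of 41.1%, and scaling to the mean over all mouse miRNAs moved the median change by -0.37. Calls numbered 34 with normexp, 72 with the total signal, 55 with no filter and 35 of 57 where only miRNAs seen on every array were tested.

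Reversed signs were all of small values that did not pass. The oxygen difference of miR-877 was -0.090 with no scaling, -0.11 when the mean over all miRNAs was used, -0.013 with the 75th percentile over all miRNAs and -0.12 with quantile normalization, where that of miR-1224 was -0.038, and with normexp that of miR-320 was 0.036. The passage change of miR-877 in WT cells at 3% O2 was -0.37 with no scaling and -0.065 when the mean over all miRNAs was used, and the passage change of miR-320 in KO minus WT was -0.19 with no scaling. By the methods' test 1 member (miR-320) passed in KO cells at 3% O2.

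Leaving out each array in turn gave averaged passage changes of 2.40 to 4.09 for miR-1224, 1.20 to 1.98 for miR-320 and 1.06 to 1.97 for miR-877. Genotype differences ran from -0.35 to 1.34, from -0.16 to 0.62 and from 0.21 to 1.11 in that order of members, and oxygen differences from -0.41 to 1.29, from -0.43 to 0.35 and from -0.30 to 0.61. Without the KO P7 20% array of slide 1, which leaves the brighter array of slide 2 alone in its group with the spread of the other groups assumed, 3 members passed in KO P7 against P3 at 20% O2 (7.63 for miR-1224, 3.77 for miR-320 and 4.90 for miR-877, against 0.86, 0.66 and 1.26 with none passed without the slide 2 array), in KO against WT at P7 and 20% O2 and between the extreme groups, and 1 (miR-877, 2.77) in the difference of passage changes. Without either KO P7 20% array 1 member passed in KO cells at 3% O2. In the other cases 0 passed. The difference of passage changes of miR-1224 ran from -0.29 (without the KO P7 20% array of slide 2) to 3.09, and the passage change of miR-877 in WT cells at 3% O2 from -0.36 (without the WT P7 3% array of slide 2) to 0.65. Normexp on mean signals was not run, as the median signals were used here.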
